A study of Mus musculus with 83 samples.

Results

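The mitochondrial carrier family was examined in 4 types of cortical neuron from young and old mice. Its members were all genes of the count table whose mouse symbol is Slc25a followed by a number. There were 47 of them among 48795 genes, all annotated as protein coding and spread over 19 chromosomes. RNA came from pools of 125 neurons, captured by laser in 14 µm sections of frozen frontal cortex. All mice were male C57BL/6, and no genetic change or drug is listed for any group. Slc17a7 staining marked the pyramidal cells (PYC). Interneurons were picked by staining for Pvalb (parvalbumin, PV), Sst (somatostatin, SST) or Vip (vasoactive intestinal peptide, VIP). Old mice were 22 months of age and gave 12 libraries per type. Young mice were 2 months of age and gave 9 libraries each for PYC, SST and VIP and 8 for PV, for 83 libraries in all.

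Carriers of this family sit in the inner mitochondrial membrane, which small charged molecules do not cross unaided. Each is built of repeated transmembrane units around a central site that opens in turn to the cytosol and to the matrix. Together they move ADP and ATP, phosphate, amino acids, Krebs cycle intermediates, iron and cofactors. In neurons they feed oxidative phosphorylation, pass reducing equivalents from glycolysis into the matrix and supply glutamate to matrix enzymes.

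The promoters of the members that carried the main differences between types are shown first. RefSeq promoters on build GRCm38.p6 were matched by symbol for 36 of the 47 members. Each line gives the 250 bases before a RefSeq transcription start, 5′ to 3′ on the gene's strand. For Slc25a5 the bases after that start were not found at the start of a GENCODE transcript, and GENCODE places the gene's start downstream, at 36795651. GENCODE places the gene starts of Slc25a4, Slc25a3 and Slc25a22 inside their windows, at 46211284, 91124059 and 141437892. Part of each of these windows thus lies within the annotated gene. For Slc25a4 that part is most of the window and holds both marked CCAAT boxes. Slc25a4 lies at chr8:46211063-46211312 on the minus strand, Slc25a5 at chrX:36795347-36795596 on the plus strand, Slc25a3 at chr10:91123968-91124217 on the minus strand and Slc25a22 at chr7:141437875-141438124 on the minus strand. Capitals mark the letters of a CCAAT box (CCAAT), a GC box (GGGCGG) or a binding motif of the factor NRF1 (GCGCA and GCGC with 1 base between), on either strand.
Slc25a4: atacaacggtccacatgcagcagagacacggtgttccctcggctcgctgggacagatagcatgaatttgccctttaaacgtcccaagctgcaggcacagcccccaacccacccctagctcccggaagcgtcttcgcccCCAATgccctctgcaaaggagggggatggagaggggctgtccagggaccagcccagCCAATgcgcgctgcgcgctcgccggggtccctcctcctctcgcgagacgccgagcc
Slc25a5: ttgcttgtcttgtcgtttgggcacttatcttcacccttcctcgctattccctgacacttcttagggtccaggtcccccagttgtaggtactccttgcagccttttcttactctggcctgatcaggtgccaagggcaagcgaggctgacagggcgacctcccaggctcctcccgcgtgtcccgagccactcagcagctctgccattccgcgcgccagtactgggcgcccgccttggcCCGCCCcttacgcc
Slc25a3: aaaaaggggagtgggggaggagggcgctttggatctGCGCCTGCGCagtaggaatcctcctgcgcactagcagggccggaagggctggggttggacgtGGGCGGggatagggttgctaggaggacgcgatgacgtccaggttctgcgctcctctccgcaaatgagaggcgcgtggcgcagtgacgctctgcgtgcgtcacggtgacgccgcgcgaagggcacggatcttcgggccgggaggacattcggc
Slc25a22: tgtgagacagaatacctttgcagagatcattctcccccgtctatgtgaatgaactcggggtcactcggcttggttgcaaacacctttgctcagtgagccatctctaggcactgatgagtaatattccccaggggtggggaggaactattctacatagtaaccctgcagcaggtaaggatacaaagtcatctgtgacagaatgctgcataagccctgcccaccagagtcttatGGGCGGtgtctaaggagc

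Slc25a4, Slc25a5 and Slc25a3 were higher in PV pools, and Slc25a22 was higher in PYC pools. Of those 3, the Slc25a4 window held 2 CCAAT boxes and no GC box, whereas the windows of Slc25a5 and Slc25a3 held 1 GC box each and no CCAAT box. The Slc25a22 window had 50.0% G and C bases, against 64.8% for Slc25a4, 61.6% for Slc25a5 and 66.4% for Slc25a3. A GC box occurred in 24 of the 36 member windows (66.7%). Its share was 32.9% over the windows of all 27025 genes and 62.0% over the 7268 genes that were tested by type and had a window. A CCAAT box occurred in 16 of the 36 (44.4%), against 34.5% of all windows and 35.6% of those of tested genes. The NRF1 motif was found in 2 of the 36 (5.56%), against 3.86% of all windows and 9.20% of those of tested genes. Also searched were AAGGTCA, a half-site of the estrogen-related receptors, and TGACGTCA, the cyclic AMP response element, each found in 1 member window (2.78%). Their shares were 4.05% and 1.62% over all windows and 2.55% and 3.21% over those of tested genes, so the members lay between both shares for each motif. Beside the tested genes, the member windows thus differed little in their share of GC boxes.

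The libraries held between 1.46 and 27.2 M counts (M for mega), and the median was 6.99 M. The summed CPM (counts of a gene per 1 M counts of the library) of the SST marker list had a median of 3312 in SST pools and 102 to 304 in the other types. In old VIP 9 and old VIP 11 the SST markers summed to 1784 and 2026 CPM, against 143 to 476 in the other 19 VIP libraries. Those of the VIP list had a median of 2130 in VIP pools and at most 102 elsewhere, and those of the PV list 2304 in PV pools and at most 660 elsewhere. That 660 was in VIP pools, where Erbb4 alone had a median of 601, Syt2 of 19.8 and Pvalb of 2.14 CPM. Pyramidal markers summed to a median of 3503 in PYC pools, but also to 3268 in VIP, 2104 in SST and 1689 in PV pools. Astrocyte markers were present in every type, with summed medians of 1636 in PV, 2066 in SST, 2391 in PYC and 2554 in VIP pools. Most of that sum was Slc1a2, with medians of 1312 in PV, 1717.5 in SST, 2146 in PYC and 2155 in VIP pools. Over the types, median CPM ran from 94.2 to 140 for Slc1a3, 6.04 to 17.35 for Aqp4 and 0.0681 to 12.3 for Gfap. Markers of other cell types were thus detected in the pools, and fewer cells of a type and less RNA per cell cannot be told apart in bulk samples. Without old VIP 9 and old VIP 11, an alternative chosen after seeing the data, every member call by type described below remained. In 6 libraries the mitochondrially encoded genes took under 3% of counts, namely young VIP 1 and 3, young PYC 2, young SST 6, old PYC 10 and old VIP 11.

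Every member had a count in at least 2 libraries, and 12 members had one in all 83. Levels between genes are compared per kilobase of exon, since longer transcripts give more counts. Slc25a4, the main ADP/ATP exchanger of neurons and muscle, led with a mean of 94.6 CPM per kb over all libraries. It was followed by Slc25a23, a calcium-regulated carrier that exchanges ATP-Mg for phosphate, at 40.3, and by Slc25a5, the second ADP/ATP exchanger, at 35.9. The phosphate carrier Slc25a3 reached 27.2 and Slc25a44, a carrier of branched-chain amino acids, 23.1 CPM per kb. The aspartate/glutamate carrier Slc25a12 stood at 20.5, the glutamate carrier Slc25a22 at 16.8 and Slc25a27, an uncoupling-protein-like member, at 16.2 CPM per kb. These values divide by all annotated exons of a gene, so exons that the neurons do not use lower them.

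The other end of the family was close to the detection limit. Slc25a31, the ADP/ATP exchanger of male germ cells, had counts in 2 libraries, both SST. Slc25a41, Slc25a54, Slc25a43 and Slc25a48 had counts in 5, 6, 8 and 9 libraries. A total of 12 members had a count in 41 libraries or fewer. A count of 0 allows up to 3 counts, which is 2.06 CPM in the smallest library and 0.110 CPM in the largest, counting error alone considered. Slc25a31 and the other members at 0 in a library were therefore undetected at this depth rather than shown to be absent.

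**Figure D1:**
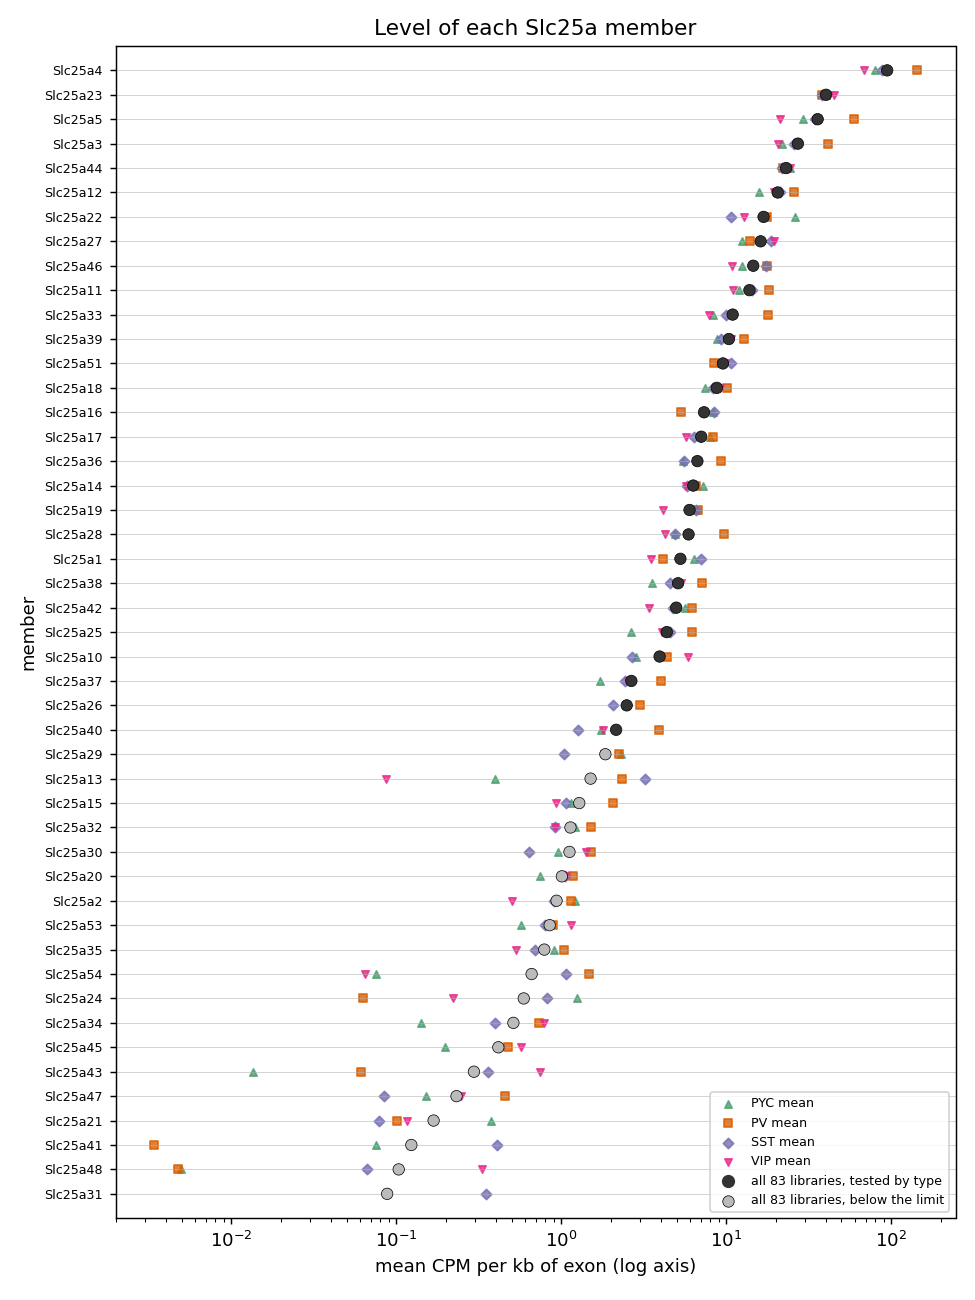
Mean level of each of the 47 members in CPM per kb of exon on a log axis, with large points for all 83 libraries (dark for the 28 members tested by type, grey for the rest) and coloured marks for each neuron type; types with no count are not drawn. Slc25a4 leads at 94.6 CPM per kb, and the PV mark (orange square) lies to the right of the other types for Slc25a4, Slc25a5 and Slc25a3.

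Differences between neuron types were tested first. Each type was compared with the mean of the other types, ages weighted equally, by edgeR's quasi-likelihood test over 9604 genes with sufficient counts, and a gene was called at a Benjamini-Hochberg adjusted p under 0.05. Of the 47 members, 28 were tested. Another 14 passed the count filter but lay below the abundance limit, and 5 failed the filter. The 4 comparisons share libraries, so a gene that is high in one type is pulled down in the others. The labels do not tie pools to mice, so p-values take pools of different types as independent although they can come from one mouse.

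PV interneurons, the fast-spiking basket and chandelier cells, had higher levels of 8 of the 28 tested members and lower levels of none. Over all genes, 22.6% were called in this comparison, 1057 of the 9604 (11%) as higher and 1116 (11.6%) as lower. The 8 were the ADP/ATP exchangers Slc25a4 and Slc25a5, the phosphate carrier Slc25a3, the aspartate/glutamate carrier Slc25a12, and Slc25a25, Slc25a28, Slc25a36 and Slc25a40. The difference was positive for 22 of the 28, with a median of 0.48 on the log2 scale, beside a median of -0.02 and 48.5% positive over all genes tested. Summed over all 47 members, the family reached 2056 ± 179 CPM (SD, n = 20) in PV pools, against 1527 ± 163 (SD, n = 21) in PYC, 1583 ± 140 (SD, n = 21) in SST and 1474 ± 158 (SD, n = 21) in VIP pools.

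**Figure D2:**
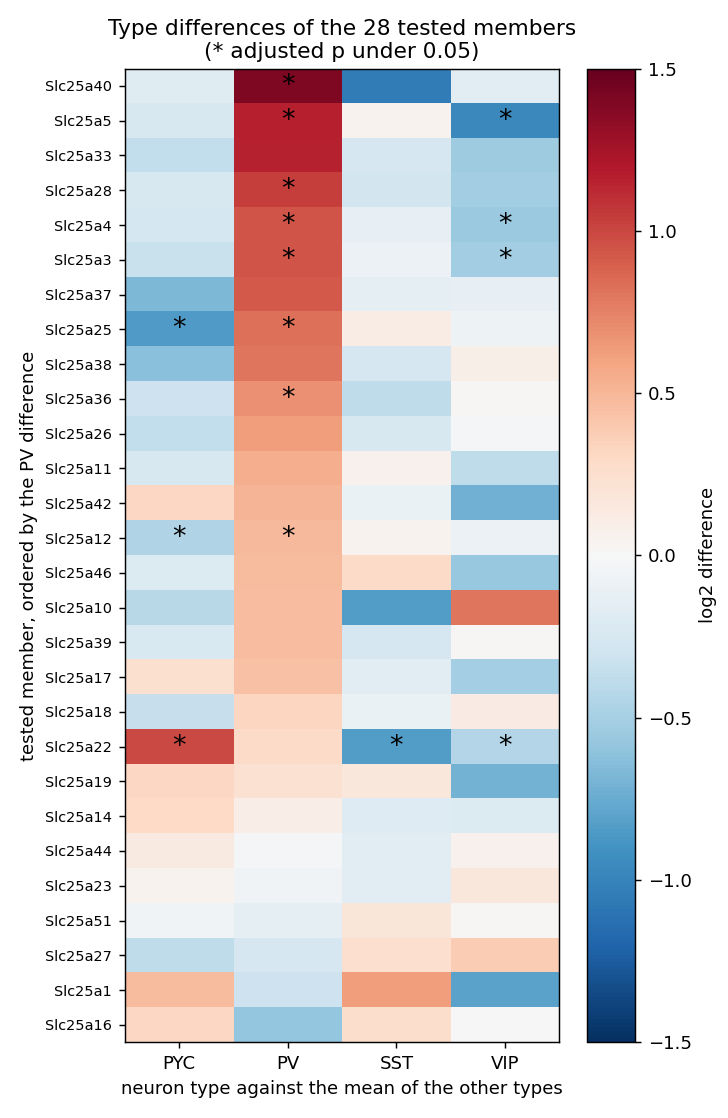
Log2 difference of each of the 28 tested members in each neuron type, relative to the average of the other 3, from blue (lower) to red (higher), ordered by the PV value, with an asterisk where the adjusted p was under 0.05. The PV column holds 8 asterisks, all on positive values, and Slc25a22 carries an asterisk in PYC (higher), SST and VIP (lower).

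The carriers that supply ATP synthase and export its product differed most between PV and VIP pools. Slc25a4 (ENSMUSG00000031633, minus strand of chromosome 8, 46206797 to 46211284 on GRCm38) ranged from 176 to 511 CPM in the 20 PV libraries, with a median of 338. In PYC it ranged from 93.9 to 285 with a median of 179.9, in SST from 119.5 to 353 with a median of 214, and in VIP from 59.7 to 215 with a median of 158 CPM. Of the PV libraries 19 lay above the median of the other types and 8 lay above every other library, so the groups overlapped only in part. The log2 difference was 0.95 ± 0.10 (SE, adjusted p = 6.02e-14 by edgeR's quasi-likelihood test). In VIP pools Slc25a4 was lower by this test, at -0.56 ± 0.11 (adjusted p = 2.20e-05), and all 21 VIP libraries lay below the median of the other types.

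Slc25a5 (ENSMUSG00000016319, plus strand of chromosome X, 36795651 to 36798807) encodes an exchanger associated with proliferating cells. It ranged from 15.8 to 176 CPM in PV libraries with a median of 93.6, while the medians were 43.4 in PYC, 57.8 in SST and 30.2 CPM in VIP pools. In 19 of the 20 PV libraries it exceeded the median of the other types, with wide overlap below. The log2 difference was 1.17 ± 0.22 in PV (edgeR adjusted p = 7.99e-06) and -0.97 ± 0.24 in VIP (adjusted p = 0.00203). Its processed pseudogene Slc25a5-ps, the one pseudogene named after a member in the table, averaged 0.0945 CPM with counts in 14 libraries.

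Slc25a3 (ENSMUSG00000061904, minus strand of chromosome 10, 91116574 to 91124059) brings phosphate, and in heart and muscle also copper, into the matrix. In PV libraries it ranged from 141 to 379.8 CPM with a median of 217, and all 20 lay above 118 CPM, the median of the other types. The medians were 116 in PYC, 145 in SST and 103 CPM in VIP pools. The log2 difference was 0.94 ± 0.13 in PV (edgeR adjusted p = 2.45e-09) and -0.52 ± 0.14 in VIP (adjusted p = 0.00395). All 3 genes thus had their highest median in PV and their lowest in VIP pools. PYC and SST pools lay between, and their differences did not pass the test for any of the 3. In PYC pools Slc25a4 and Slc25a3 were called as lower by DESeq2 and without TMM scaling factors.

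Taken per kilobase, Slc25a4, Slc25a5 and Slc25a3 made up 44.2% ± 5.35 (SD, n = 20) of the family's summed level in PV pools. Their share was 35.8% ± 6.60 in SST, 33.8% ± 6.89 in PYC and 30.3% ± 5.44 in VIP pools (SD, n = 21 each). Slc25a23 went the other way as a share, with 6.96% ± 2.06 (SD, n = 20) in PV and 12.4% ± 4.01 (SD, n = 21) in VIP pools. Its own level hardly moved, since its type means ran from 201 to 237 CPM and it was not called in any type. These shares are given as a description without a test.

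Other measures moved with PV. The 13 mitochondrially encoded transcripts, all 13 with a median above 0 in every type, summed to 11089 to 20662 CPM in PV libraries with a median of 14802. Their medians were 10724 to 11846 CPM in the other types, with ranges of 980 to 14107 in PYC, 3410 to 14363 in SST and 1831 to 18136 in VIP libraries. Of 9 astrocyte markers, 8 had a median above 0 in PV pools, where Gjb6 was at 0, and all 9 did in the other types. Their sum, most of it Slc1a2, ranged from 845 to 2522 CPM in PV, 1431 to 2781 in SST, 1370 to 3394 in PYC and 1278 to 3263 in VIP libraries. Slc1a2, Slc1a3, Aqp4, Gfap and Gjb6 had their lowest median in PV pools, whereas Aldoc, Gja1, S100b and Aldh1l1 did not. Aldoc had a median of 125 CPM in PV, 87.2 in PYC, 91.5 in SST and 128 in VIP pools. The part of these measures in the carrier differences was not tested. Without the 6 libraries of low mitochondrial share, the calls of Slc25a4, Slc25a5 and Slc25a3 in PV pools were the same.

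**Figure D3:**
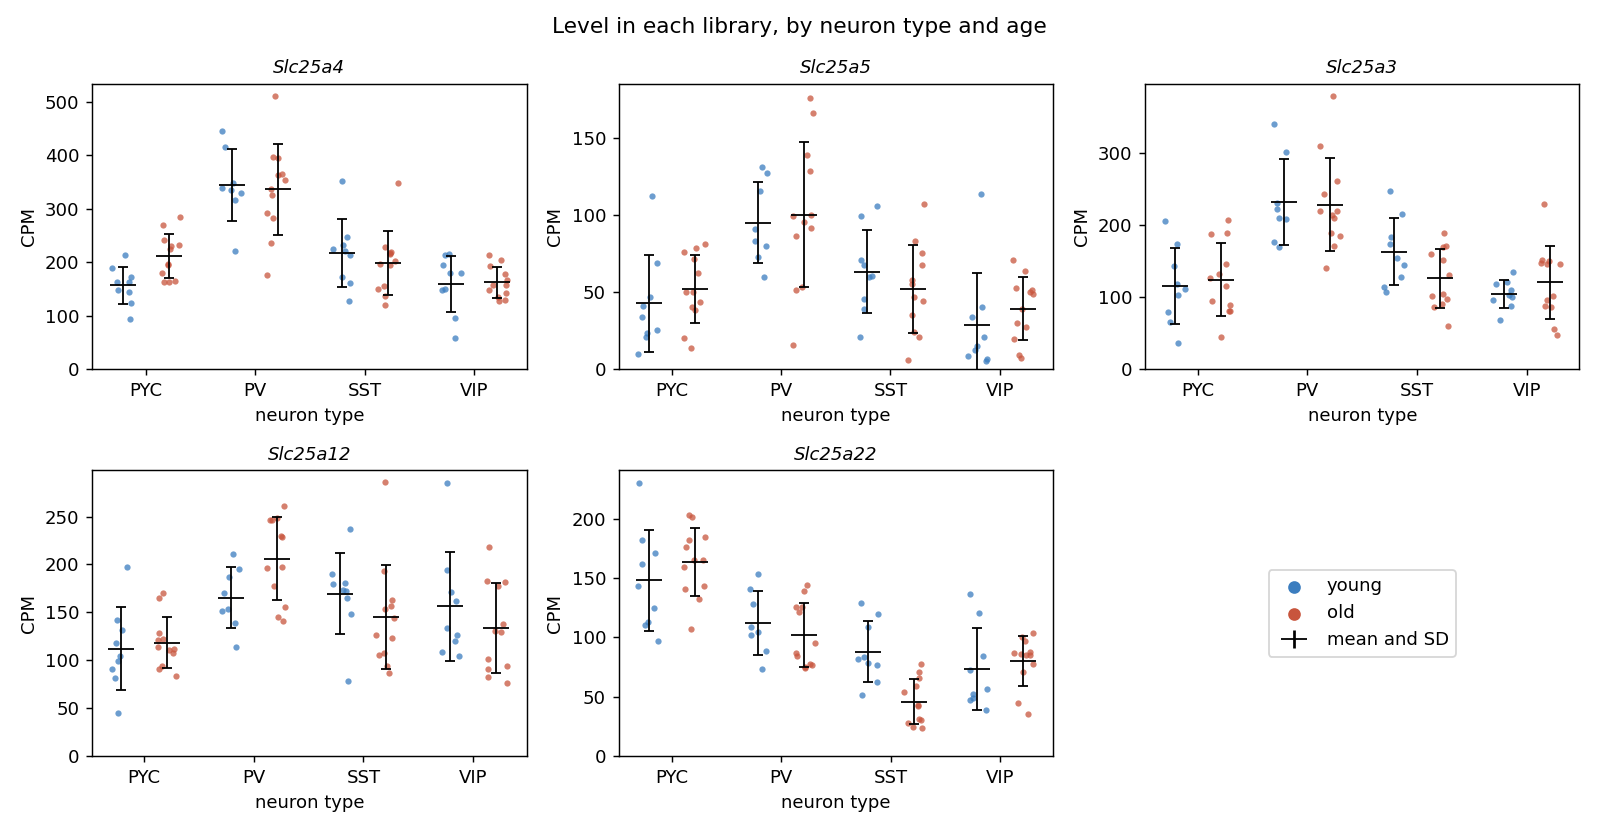
CPM of 5 members in each library (points, blue for young and red for old) by neuron type, with the mean and SD of each group in black; SD bars are cut at 0. PV libraries sit highest for Slc25a4, Slc25a5 and Slc25a3, PYC libraries sit highest for Slc25a22, and old SST libraries have the lowest group mean of Slc25a22 at 45.9 CPM.

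The aspartate/glutamate and glutamate carriers showed a different order of types for each gene. Slc25a12 (ENSMUSG00000027010, minus strand of chromosome 2, 71271063 to 71367749) sends aspartate out of the matrix in exchange for glutamate and is activated by calcium. Its median was 191 CPM in PV, 157 in SST, 131 in VIP and 112 in PYC pools. PV libraries ranged from 114 to 262 CPM and 19 of 20 exceeded the median of the other types, while 18 of 21 PYC libraries, which ranged from 45.0 to 198, lay below it. It was higher in PV by 0.48 ± 0.12 (edgeR adjusted p = 0.000593) and differed by -0.45 ± 0.12 in PYC (adjusted p = 0.00259) on the log2 scale. In young libraries alone the PV difference was 0.27 and did not pass the test, and the PYC call was lost in young (adjusted p = 0.0920) and in old (adjusted p = 0.0598) libraries alone.

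Slc25a22 (ENSMUSG00000019082, minus strand of chromosome 7, 141429744 to 141437892) imports glutamate together with a proton. Its 21 PYC libraries ranged from 96.8 to 230 CPM with a median of 162, and every one lay above 79.96 CPM, the median of the other types. PV libraries ranged from 73.1 to 153 with a median of 103, VIP libraries from 35.8 to 137 with a median of 84.7, and SST libraries from 24.0 to 129 with a median of 62.9 CPM. Of the PYC libraries 12 lay above all 62 others. The log2 difference was 0.99 ± 0.12 in PYC (edgeR adjusted p = 6.39e-11), -0.83 ± 0.13 in SST (adjusted p = 9.78e-07) and -0.44 ± 0.13 in VIP (adjusted p = 0.0126). In PV it was 0.29 ± 0.13 and did not pass (adjusted p = 0.0972).

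Slc25a22 was the one member with a higher level in PYC pools among 28 tested, and 2 members were lower there. Over all genes 16.6% were called in PYC, 9.14% as higher and 7.47% as lower. The pyramidal markers, 10 of 10 with a median above 0 in PYC, PV and VIP pools and 9 in SST pools, where Emx1 was at 0, are given beside Slc25a22. Their sum ranged from 2923 to 5648 CPM in PYC, 2166 to 4631 in VIP, 1611 to 2792 in SST and 1088 to 2490 in PV libraries. Single markers differed in order. Slc17a7 had a median of 731 CPM in PYC and 273 to 484 in the other types, Camk2a, the most abundant, 2041 in PYC and 2277 in VIP, and Cux2 56.6 in PYC and 153 to 203 CPM in the other types. Their part in the Slc25a22 differences was not tested.

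In SST pools Slc25a22 was the single call among the 28, against 7.59% of all genes called (4.48% higher and 3.11% lower). That call passed in old libraries alone but not in young libraries alone. Against the other types of the same age the log2 difference was -1.33 in old libraries and -0.36 in young libraries, where it did not pass (adjusted p = 0.622). In VIP pools the difference was -0.66 in young libraries alone (edgeR adjusted p = 0.0494). In old libraries alone it was -0.20 and did not pass (adjusted p = 0.581). The mean that VIP pools are set against includes SST pools, whose old minus young difference was -0.95 ± 0.28. Within VIP pools the old minus young difference was 0.17 ± 0.30. By edgeR's quasi-likelihood test, the age differences of Slc25a22 were not called as different between types (adjusted p = 0.842).

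The remaining members of this group were less abundant. Slc25a18, the glutamate carrier that is best known from astrocytes, had type means from 14.2 ± 13.6 CPM (SD, n = 21) in PYC to 19.5 ± 20.2 (SD, n = 20) in PV pools and was not called in any type. Slc25a13, the aspartate/glutamate carrier of liver known as citrin, lay below the abundance limit and is described because its levels were uneven, a choice made after its values were seen. It was at 0 in 17 of 21 VIP and 13 of 21 PYC libraries, but in only 4 of 20 PV and 7 of 21 SST libraries. Its median was 4.58 CPM in PV and 5.13 CPM in SST pools, with highest values of 46.1 and 49.8 CPM, against highest values of 18.4 in PYC and 4.19 CPM in VIP pools. No fold change or test is given, because it was chosen for this pattern and its medians in PYC and VIP pools were 0.

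The enzymes that work with Slc25a12 were read beside it. In the malate-aspartate shuttle, cytosolic and mitochondrial aspartate aminotransferases (Got1, Got2) and malate dehydrogenases (Mdh1, Mdh2) act with Slc25a12 and the oxoglutarate/malate carrier Slc25a11 to bring the electrons of cytosolic NADH into the matrix. The glycerol-phosphate shuttle also uses cytosolic NADH but needs no carrier, and works through Gpd1 in the cytosol and Gpd2 on the inner membrane. Of 9 genes fixed as shuttle and glutamate enzymes, all tested, 5 were higher and 2 lower in PV pools, against 11% and 11.6% of all genes. In VIP pools 1 was higher and 5 were lower, against 7.06% and 5.50%, and 1 of these 5 calls was lost without old VIP 9 and old VIP 11. In PYC pools 2 were higher and 1 was lower, against 9.14% and 7.47%, and in SST pools 1 was lower, against 3.11%.

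Mdh1 averaged 495 ± 97.6 CPM (SD, n = 20) in PV, 285 ± 99.5 in SST, 230 ± 57.4 in PYC and 194 ± 62.3 in VIP pools (SD, n = 21 each). Got1 averaged 270 ± 71.8 CPM (SD, n = 20) in PV, 138 ± 61.4 in SST, 130 ± 44.0 in PYC and 104 ± 38.0 in VIP pools. For both genes all 20 PV libraries exceeded the median of the other types. In PV the log2 differences were 1.16 ± 0.11 for Mdh1, 1.18 ± 0.13 for Got1, 0.79 ± 0.14 for Got2 and 0.60 ± 0.11 for Mdh2 (edgeR adjusted p at most 1.47e-05). In VIP they were -0.77 ± 0.12 for Mdh1, -0.74 ± 0.14 for Got1, -0.64 ± 0.15 for Got2 and -0.35 ± 0.12 for Mdh2 (adjusted p at most 0.0349), though Mdh2 in VIP passed in 6 of 11 alternative settings. Got2 in VIP did not pass in old libraries alone (edgeR adjusted p = 0.181), nor Mdh2 in PV in young libraries alone (adjusted p = 0.126). Slc25a11 was measured at 38.8 ± 23.0 CPM (SD, n = 20) in PV and 23.2 ± 14.4 (SD, n = 21) in VIP pools, and its log2 difference of 0.55 ± 0.29 in PV did not pass (adjusted p = 0.181).

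The glycerol-phosphate shuttle had another order. Gpd1 ranged from 63.4 to 399 CPM in VIP libraries with a median of 154, and 20 of the 21 lay above every library of the other types. It averaged 45.8 ± 20.1 CPM (SD, n = 21) in PYC, 19.7 ± 14.8 (SD, n = 21) in SST and 11.9 ± 9.96 (SD, n = 20) in PV pools. Its log2 difference was 2.79 ± 0.24 in VIP (edgeR adjusted p = 1.30e-17), -2.08 ± 0.31 in PV (adjusted p = 2.88e-08) and -1.20 ± 0.28 in SST (adjusted p = 0.00126). Gpd2 was at 22.7 ± 20.9 CPM (SD, n = 20) in PV pools and between 62.5 and 75.7 CPM on average in the others. Its log2 difference was -1.58 ± 0.26 in PV (edgeR adjusted p = 4.96e-07) and 0.74 ± 0.22 in PYC (adjusted p = 0.00844). In young libraries alone the Gpd2 call in PYC (edgeR adjusted p = 0.410) and the Gpd1 call in SST (adjusted p = 0.0797) were lost. Gpd1 is also abundant in oligodendrocytes, whose 7 markers, all with medians above 0 in every type, summed to medians of 583 CPM in VIP, 568 in PV, 699 in PYC and 917 in SST pools. Their sum ranged from 153 to 1916 CPM in VIP, 266 to 844 in PV, 222 to 1446 in PYC and 274 to 1402 in SST libraries. Their part in the Gpd1 differences was not tested.

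Of the glutamate enzymes, glutamate dehydrogenase Glud1 was higher in PV pools by 0.72 ± 0.19 (edgeR adjusted p = 0.00196), with 101 ± 42.2 CPM (SD, n = 20) against 55.5 to 76.6 CPM on average in the other types. The Glud1 call was lost in young libraries alone (edgeR adjusted p = 0.0900).

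**Figure D4:**
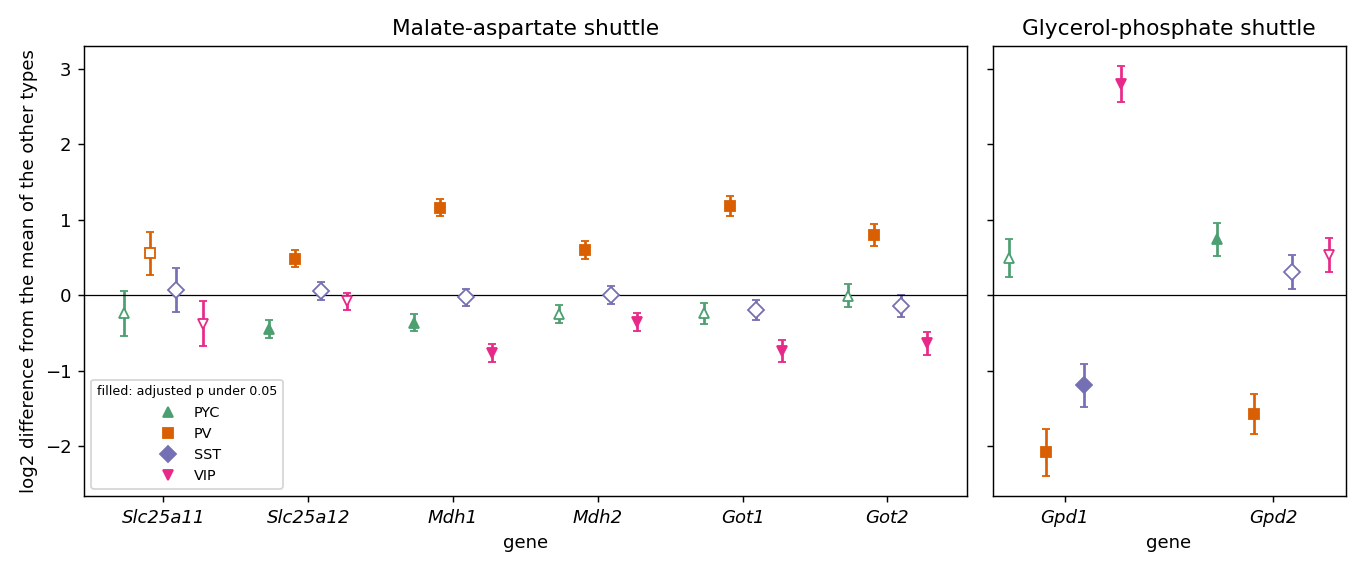
Log2 difference from the mean of the other types (y axis, bars are standard errors) for genes of the malate-aspartate shuttle (left) and the glycerol-phosphate shuttle (right) in PYC, PV, SST and VIP pools, filled where the adjusted p was under 0.05. PV values (orange squares) lie above 0 for all 6 genes on the left and below 0 for Gpd1 and Gpd2 on the right, where the VIP value of Gpd1 is 2.79.

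Among the carriers that exchange ATP-Mg for phosphate, which set the nucleotide content of the matrix, Slc25a23 and Slc25a25 were tested. Slc25a23 (chromosome 17, 57043711 to 57059863) was even across types, with log2 differences from -0.17 in SST to 0.17 in VIP, none called. Slc25a25 (chromosome 2, 32414487 to 32451445) was higher in PV by 0.83 ± 0.28 (edgeR adjusted p = 0.0199), with a median of 47.1 CPM against 27.6 CPM over the other types. It differed by -0.85 ± 0.30 in PYC (adjusted p = 0.0357), with a median of 15.5 CPM, and 20 of the 21 PYC libraries lay below the median of the other types. This PYC call was lost when any of 9 libraries was left out, namely young PYC 3, 5, 6, 8 or 9, old PYC 4 or 12, or young SST 2 or 4, with adjusted p up to 0.0692. It was also lost with the F number as a factor and in young (adjusted p = 0.521) or old (adjusted p = 0.0547) libraries alone. Both Slc25a23 and Slc25a25 overlap exons of a gene on the opposite strand, and whether counting used strand is not given here. The PV call of Slc25a25 did not pass in young (adjusted p = 0.301) or old (adjusted p = 0.0587) libraries alone. Slc25a24 lay below the abundance limit and Slc25a41 failed the filter.

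The largest group carries iron, glutathione, nucleotides and cofactors, with 14 members of which 12 were tested. In PV pools 3 were higher and none was lower, against 11% and 11.6% of all genes. In PYC, SST and VIP pools none was called, against 16.6%, 7.59% and 12.6% of all genes. Slc25a28, a mitoferrin that imports iron for heme and iron-sulfur clusters, had a median of 36.1 CPM in PV and 13.0 to 22.1 CPM in the other types, a log2 difference of 1.04 ± 0.32 (edgeR adjusted p = 0.0105). Slc25a36, a carrier of pyrimidine nucleotides, had a median of 82.2 CPM in PV and 50.7 to 63.8 CPM in the other types, a log2 difference of 0.68 ± 0.23 (adjusted p = 0.0223). Slc25a40, a glutathione carrier, had a median of 31.6 CPM in PV and 5.01 to 12.4 CPM in the other types, a log2 difference of 1.40 ± 0.48 (adjusted p = 0.0224). The Slc25a40 call was lost without young PV 8 (adjusted p = 0.0672) and in old libraries alone (adjusted p = 0.174). In young libraries alone none of these 3 passed.

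The partners of these genes did not pass. Slc25a33, the second pyrimidine nucleotide carrier, differed by 1.15 ± 0.47 in PV (adjusted p = 0.0637), and Slc25a37, the second mitoferrin, by 0.93 ± 0.54 (adjusted p = 0.249). Slc25a39, the second glutathione carrier, differed by 0.46 ± 0.30 (adjusted p = 0.314). The NAD carrier Slc25a51 differed by -0.15 ± 0.24 in PV and is one of 2 members that share exon bases with another gene on the same strand.

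The other groups held no call in any type, though few members of each were tested. Over all genes 22.6% were called in PV, 16.6% in PYC, 7.59% in SST and 12.6% in VIP pools. For citrate, dicarboxylate and oxoglutarate carriers, 3 of 4 members were tested, with PV differences from -0.31 for Slc25a1, the citrate carrier that feeds lipid synthesis, to 0.55 for Slc25a11. For carriers of carnitine, ornithine and other amino acids, 2 of 7 were tested, with 0.80 ± 0.46 for Slc25a38, which supplies glycine for heme, and -0.03 ± 0.16 for Slc25a44. Of 3 uncoupling-protein-like members 2 were tested, and Slc25a27 averaged 49.3 ± 25.9 CPM (SD, n = 21) in PYC and 76.4 ± 38.9 (SD, n = 21) in VIP pools, and no type passed. Of 7 members that shape membranes or have no assigned substrate, only Slc25a46 was tested. This outer-membrane protein of mitochondrial fission and fusion had medians of 91.2 CPM in PV, 91.6 in SST, 57.9 in PYC and 53.7 in VIP pools, with log2 differences of 0.48 ± 0.25 in PV and -0.57 ± 0.27 in VIP that did not pass (adjusted p = 0.187 and 0.177).

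In VIP pools 4 of the 28 tested members were lower and none was higher, namely Slc25a4, Slc25a5, Slc25a3 and Slc25a22, against 12.6% of all genes called, 7.06% as higher and 5.50% as lower. The median difference of the 28 was -0.14 in VIP, -0.24 in PYC and -0.13 in SST, beside 0.03, -0.03 and 0.02 over all genes tested. The VIP calls were less firm within an age. Slc25a4 missed the threshold in young libraries alone (adjusted p = 0.0581), Slc25a3 in old libraries alone (adjusted p = 0.284), and Slc25a5 in either (adjusted p = 0.0549 and 0.114).

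Genes that act next to the family were read from lists of the same kind. Of the 3 tested outer-membrane channels, the porins Vdac1, Vdac2 and Vdac3 through which metabolites reach the carriers, all 3 were higher in PV pools, against 11% of all genes, by 0.64 ± 0.11, 0.83 ± 0.19 and 0.74 ± 0.22 (edgeR adjusted p at most 0.00746). Vdac1 and Vdac3 were lower in VIP pools. In young libraries alone the calls of Vdac3 in PV and Vdac1 in VIP were lost, and in old libraries alone that of Vdac2 in PV. The Vdac3 call in VIP was lost in either age alone and by limma-voom. Of 14 tested inner-membrane transporters outside the family, 4 were higher in PV, against the same 11%, led by the pyruvate carrier subunit Mpc2 at 1.51 ± 0.29 (adjusted p = 1.75e-05), with 52.3 ± 24.5 CPM (SD, n = 20) in PV and 14.3 ± 14.2 (SD, n = 21) in VIP pools. Among the others were Smdt1, a subunit of the calcium uniporter, and Sfxn5, a sideroflexin. The calls of Smdt1 and Sfxn5 were lost in young libraries alone, and that of Smdt1 also in old libraries alone. Mpc2 was also the single one lower in VIP, by -1.14 ± 0.33 (adjusted p = 0.0114), a call lost in either age alone and by limma-voom. Of 8 tested genes that import carrier proteins into the membrane, Tomm40, the channel of the outer membrane, was higher in PV by 0.87 ± 0.32 (adjusted p = 0.0352). Tomm40 passed in 7 of 11 alternative settings, and 1 of 8 is near the 11% of all genes that were higher in PV. Of the 5 carrier proteins with other symbols, Mtch1 and Mtch2 were tested and not called. Ucp2, the uncoupling protein, averaged 1.93 to 7.21 CPM over the types and was not tested by type.

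Age was then compared within each type, old against young. No member was called in any of the 4 types by edgeR's quasi-likelihood test, by DESeq2 or by limma-voom, with 36 members tested in PV, 34 in VIP, 33 in PYC and 32 in SST pools. The test called 0% of all genes in each type, so the background was 0 as well. At an unadjusted p under 0.05 there were 2.89% of genes in PYC, 2.29% in PV, 2.87% in SST and 2.98% in VIP pools, and 1 member in PYC, 1 in SST and none in PV and VIP pools. The median difference of the members was 0.08 in PYC, -0.02 in PV, -0.11 in SST and -0.06 in VIP on the log2 scale, beside medians from -0.01 to 0.02 over all genes. Averaged over types, no member was called and none was under 0.05 unadjusted, against 4.47% of all genes.

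For the 2 members under 0.05 unadjusted, values are given although neither passed. Slc25a22 in SST pools ranged from 51.6 to 129 CPM in young libraries with a median of 81.7, and from 24.0 to 77.2 CPM in old libraries with a median of 42.4. All 12 old libraries lay below the young median and 7 lay below the lowest young library, while the other 5 overlapped the young range. The log2 difference, old minus young, was -0.95 ± 0.28 (edgeR unadjusted p = 0.00171, adjusted p = 0.99993), and it ran from -1.05 to -0.86 when each SST library was left out in turn. In the other types the difference was 0.15 ± 0.19 in PYC, -0.16 ± 0.21 in PV and 0.17 ± 0.30 in VIP. The test of whether age differences differed between types gave an unadjusted p of 0.0016 for Slc25a22, with an adjusted p of 0.842. In that test 1 of 9604 genes was called (0.0104%), 2.69% were under 0.05 unadjusted, and no member was called.

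In SST pools the sum of mitochondrially encoded transcripts was 12667 ± 1225 CPM (SD, n = 12) in old and 10035 ± 2946 (SD, n = 9) in young libraries. The pyramidal marker sum was 2021 ± 361 in old and 2195 ± 337 CPM in young SST libraries, and the SST marker sum was 3329 ± 346 and 3431 ± 557 CPM. The part of these measures in the Slc25a22 values was not tested. Slc25a4 in PYC pools ranged from 93.9 to 213 CPM in young libraries with a median of 163 and from 162 to 285 CPM in old libraries with a median of 211. Of the 12 old libraries 11 lay above the young median and 6 above the highest young library. The log2 difference was 0.42 ± 0.18 (edgeR unadjusted p = 0.0223, adjusted p = 0.99995). In PV, SST and VIP pools the difference of Slc25a4 was -0.04 ± 0.15, -0.11 ± 0.18 and 0.07 ± 0.22.

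**Figure D5:**
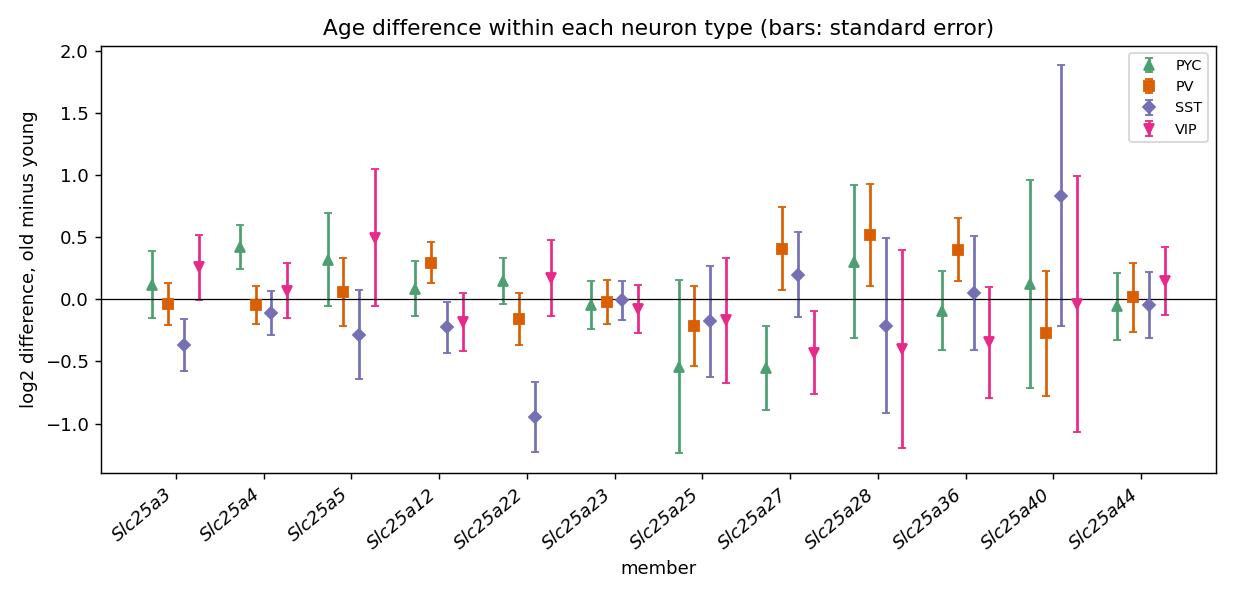
Log2 difference, old minus young, within each neuron type (y axis, bars are standard errors) for the 12 members described with group values. Of 48 values 38 lie within 1 standard error of 0, none passed the test, and the SST value of Slc25a22 at -0.95 stands lowest.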

How the data were processed

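The deposited table holds raw read counts by Ensembl gene with no normalization. Per the submitters' processing notes, HISAT2 was used with GRCm38. Per the labels' protocols, the kit was SMARTer Stranded Total RNA-Seq for pico input. How reads were counted, with which annotation and whether by strand, is not given in the sources used. Values of overlapping, antisense or near-identical genes are therefore uncertain.

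A symbol was found for 48349 genes and for 446 none. Exon lengths, coordinates and overlaps are from GENCODE M21. Groups came from the labels. Library numbers follow the order of the samples, libraries of 1 type were treated as separate mice, and p-values measure only the spread between these libraries. No libraries held identical values. No molecular identifiers are given, so limits from counts cover counting error only.

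The members, gene lists and naming rule were chosen with earlier results of these data known. Named are the 8 members with the highest level per kb, up to 8 called per type and direction, members under 0.05 unadjusted for age, called companion genes (some are not reported here), and Slc25a13, Slc25a18 and Slc25a46 and others as examples of their group. Tests were made in edgeR 4.0.16 under R 4.3.3 with the robust quasi-likelihood F-test. Settings were TMM factors and filterByExpr with minimum count 10, and p-values were 2-sided and Benjamini-Hochberg adjusted over all genes tested. Type, the age mean and the interaction used 1 fit of 8 groups, restricted to genes whose average log CPM reached the median of the genes that pass the filter. Age within a type used that type's libraries. Differences are log2 with standard errors from the F statistic. All tests were tried on simulated counts, with changes only in the more abundant genes that pass the filter and no other difference between groups. Recovery of changes in lower genes, which the age fits also test, was thus not measured. Age fits of 11822 to 12404 genes recovered 13 to 17% of 2-fold and 38 to 50% of 4-fold changes, and type fits of 9175 to 9208 genes 51.1 to 57.0% and 90.6 to 97.9%. For the age mean these shares were 64.5% and 95.6% (9199 genes), and for the interaction, with changes in old PV, 4.26% and 35.4% (9198 genes). Alternatives were RLE factors, no TMM factor, no abundance limit or filter, DESeq2 1.42.0, limma-voom (limma 3.58.1), the F number in the titles (not explained by the labels) or the library total as covariate, 1 age alone, leaving out the 6 libraries of low mitochondrial share, leaving out 2 VIP libraries of high SST marker level, and leaving out each library. Leaving out TMM, leaving out the 2 VIP libraries, and leaving out each library in the fit of 8 groups were chosen after seeing the data.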

Additional observations from a re-analysis of the deposited data

Results flagged for a closer look

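Dixon's test at the 95% level was run on 48 combinations of a named member and a young group of 8 or 9 libraries. These combinations share libraries. In 4 of the 48, 1 library stood apart from the others, and chance passes this test in about 1 in 20 combinations. Slc25a5 reached 113 CPM in young VIP 8, against 5.75 to 40.3 CPM in the other young VIP libraries. Slc25a12 reached 285 CPM in young VIP 1, against 104 to 194 CPM in the others. Slc25a28 reached 53.9 CPM in that same library, against 3.83 to 22.4 CPM in the others. Slc25a25 reached 86.5 CPM in young PYC 2, against 0 to 37.9 CPM in the others. Young VIP 1 and young PYC 2 are among the 6 libraries in which mitochondrially encoded genes took under 3% of counts, with 0.890% and 0.215%. The part of that low share in these values was not tested.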

How the results depend on the processing

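In the type comparisons 8 members were called in PV, 3 in PYC, 1 in SST and 4 in VIP. Leaving out each of the 83 libraries gave 7 to 9, 2 to 4, 1 and 4 to 5. Slc25a4, Slc25a5 and Slc25a3 in PV and Slc25a22 in PYC passed in all 11 alternatives and all 83 of these fits. limma-voom called 14 in PV, with 3098 of 9604 genes called against 2173 in the main fit. DESeq2 and the fit without TMM each called 5 in PYC, with 1817 and 1568 genes against 1595. Without the abundance limit 2 were called in SST, with 1523 of 19208 genes against 729 of 9604. Young libraries alone gave 3 in PV, 1 in PYC, 0 in SST and 2 in VIP. Over all genes they called 1071, 721, 255 and 555 of 7739 in these types. Old libraries alone gave 1 in PYC and 1 in VIP, with 1051 and 580 of 7351 genes. These fits hold fewer libraries. Without old VIP 9 and old VIP 11, 5 were called in VIP, with 1153 of 9541 genes. The member counts of the other types were then the same. For age, 0 members were called in each type, and leaving out each library gave 0. Without a filter 3 were called in PV, 4 in PYC, 5 in SST and 1 in VIP, all but Slc25a22 in SST at counts that the filter removes. That setting also called 5734 to 7117 of all genes, against 0, and the cause was not tested. DESeq2 called 2 genes in PV and 1 in SST over all genes, and limma-voom 2 in PV, 2 in PYC and 1 in SST. For the interaction, 1 member (Slc25a47) and 600 of all genes were called without the abundance limit, against 0 and 1 with it. No change of direction was seen among the named calls in any alternative. No paired analysis was possible because the numbers of the libraries follow the order of the samples and no label ties a library to a mouse. Depth limits the 19 members not tested by type, of which 14 passed the count filter and lay below the abundance limit.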
